A study of Glycine max with 20 samples.

Results

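The genes that were highest at 25 days after flowering (DAF) in developing soybean seeds of DN47 were examined in both lines of the series. A gene was eligible when its identifier began with GLYMA, the prefix of annotated soybean genes, and its mean over the 2 DN47 libraries at 25 DAF reached 20 RPKM (read counts scaled to gene length and to the total of the library). The 5412 eligible genes, of 54174 GLYMA identifiers and 57274 gene models in all, were ranked by the 25 DAF mean divided by the largest mean of the other 4 stages plus 1, and the first 150 were taken. The genes were thus chosen by their DN47 RPKM at all 5 stages, so their stage profile in DN47 and their differences between the lines are described with no test. The cgy-2-NIL libraries took no part in the choice.

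DN47 (Dongnong47) is a cultivar with the normal set of β-conglycinin subunits. cgy-2-NIL is a near-isogenic line with DN47 as recurrent parent, made by repeated backcrossing, that lacks the α-subunit and carries an introgressed segment on chromosome 20. Both lines were sampled as pooled whole seeds, seed coat included, from field-grown plants of 5 ages (18, 25, 35, 50 and 55 DAF), with no treatment, and each of the 10 groups had 2 libraries. Because the seeds were whole and pooled, fewer cells of a type and less RNA per cell cannot be told apart.

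Soybean seed growth passes from a phase of cell division and pattern formation into seed filling, in which the cotyledon cells enlarge and store protein, oil and carbohydrate, and ends with desiccation. The stage at which filling begins is a change-over: growth genes are being turned down while the genes of storage protein synthesis are being turned on. Whether genes with their highest transcript level in that window form a short wave between both programmes was not tested. The major storage proteins, the globulins β-conglycinin and glycinin, belong to the cupin family and are the classic markers of filling.

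Libraries held 18492047 to 30555808 counts. The 18 cupin genes listed by the study, most of them storage protein genes and none of which is among the 150, took at most 0.0184% of counts at 18 DAF and reached 5.58% and 2.92% in the DN47 libraries at 25 DAF against 2.09% and 0.745% in the cgy-2-NIL libraries, so the groups at 25 DAF did not overlap. Without the α-subunit genes the 16 remaining cupins gave 5.56% and 2.91% against 2.09% and 0.744%. At 35 DAF the 18 genes took 22.9% and 20.4% in DN47, but 14.9% in cgy-2-NIL replicate 1 against 21.5% in replicate 2. The α-subunit genes GLYMA20G28650 and GLYMA20G28660 summed to 7488 counts over the DN47 libraries at 25 DAF and to 292 counts over those of cgy-2-NIL, so the low counts were in the line labelled as lacking the α-subunit.

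The 25 DAF peak of the 150 genes in DN47 was one of degree. Their ranking ratio ran from 5.26 for GLYMA16G01650 to 1.72 for GLYMA04G14830, with a median of 1.99. Only 10 genes had a ratio above 3 and 73 a ratio above 2, and the largest mean of another stage reached 57.9% of the 25 DAF mean. The genes are therefore called 25 DAF genes below for their highest stage, and not as genes restricted to it. The median gene stood at 56.7 RPKM at 25 DAF (lowest 20.1, highest 3034). At 18 DAF it was at 23.2 RPKM and at 35 DAF at 23.9 RPKM. It had dropped to 3.72 RPKM by 50 DAF and to 1.62 RPKM by 55 DAF. The stage next in level was 35 DAF for 84 genes, 18 DAF for 65 and 55 DAF for 1, GLYMA17G08310.

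Expressed as a percentage of each gene's own 25 DAF mean, the median DN47 level went from 40.1% at 18 DAF to 43.3% at 35 DAF, 8.01% at 50 and 2.31% at 55. In cgy-2-NIL the medians were 36.7%, 60.9%, 8.33% and 1.24%. In percentage points the medians of the lines stood furthest apart at 35 DAF, whereas as a ratio they differed more at 55 DAF, where the levels were low. Together the 150 genes took 2.88% and 2.87% of all counts in the DN47 libraries at 25 DAF and 2.94% and 2.69% in those of cgy-2-NIL. At 35 DAF their share was 0.972% and 0.996% in DN47, but 1.64% and 1.30% in cgy-2-NIL.

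**Figure D1:**
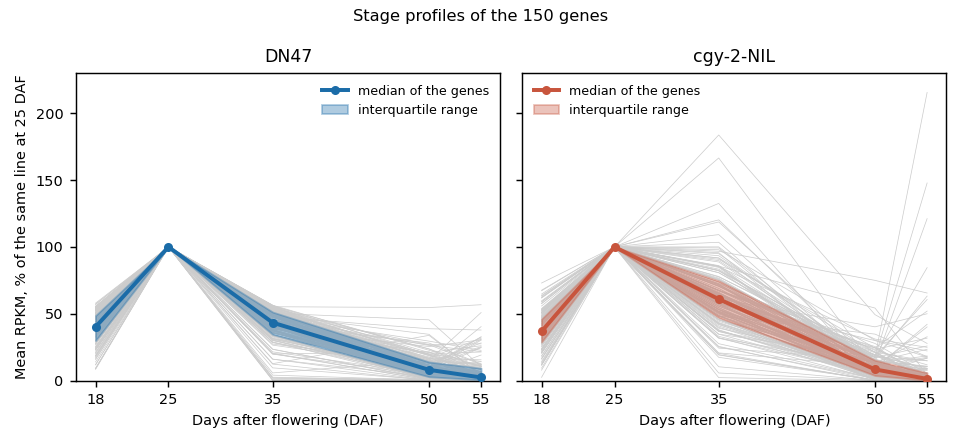
Mean RPKM of each of the 150 genes (grey lines) as a percentage of the same line's 25 DAF mean, against days after flowering, in DN47 (left) and cgy-2-NIL (right), with the median of the genes (points) and the interquartile range (band). The median at 35 DAF is 43.3% in DN47 and 60.9% in cgy-2-NIL, and a few cgy-2-NIL lines rise above 100% at 35 or 55 DAF, which the choice of genes did not allow in DN47.

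The 12 genes of highest rank had steep profiles in DN47. GLYMA16G01650, ranked first, had 37.0 and 39.7 RPKM at 18 DAF, 210 and 204 RPKM at 25 DAF, 21.3 and 29.6 RPKM at 35 DAF and at most 0.168 RPKM later. In cgy-2-NIL it had 44.4 and 45.5 RPKM, then 240 and 186 RPKM, then 61.1 and 25.6 RPKM, and at most 0.0897 RPKM later. The 25 DAF libraries lay above all other libraries of the same line.
GLYMA12G34610 had 33.9 and 34.6 RPKM at 25 DAF in DN47 and 42.1 and 40.2 RPKM in cgy-2-NIL, and no read at 55 DAF in any library of either line. GLYMA03G16130 reached 98.6 and 85.6 RPKM in DN47 and a lower 69.7 and 55.1 RPKM in cgy-2-NIL at 25 DAF. At 35 DAF the order of the lines was the opposite, with 19.3 and 17.6 RPKM in DN47 and 31.5 and 27.0 RPKM in cgy-2-NIL. GLYMA20G01880 had 88.7 and 66.8 RPKM at 25 DAF in DN47, and 78.2 and 56.5 RPKM in cgy-2-NIL, so the lines overlapped.

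GLYMA09G12198 had the highest level of the set. Its DN47 libraries held 735 and 765 RPKM at 18 DAF, 3192 and 2876 RPKM at 25 DAF and 64.2 and 85.9 RPKM at 35 DAF. In cgy-2-NIL it held 764 and 743 RPKM, then 2591 and 2209.9 RPKM, and at 35 DAF 770 RPKM in replicate 1 against 159 RPKM in replicate 2. GLYMA06G16800, the second in level, had 2284 and 2673 RPKM at 25 DAF in DN47 and 2981 and 2902 RPKM in cgy-2-NIL. The other genes of highest level were GLYMA11G21480, GLYMA02G42602, GLYMA05G25810, GLYMA04G14830, GLYMA08G08770 and GLYMA20G33880, with DN47 means at 25 DAF from 466 to 2457 RPKM.

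**Figure D2:**
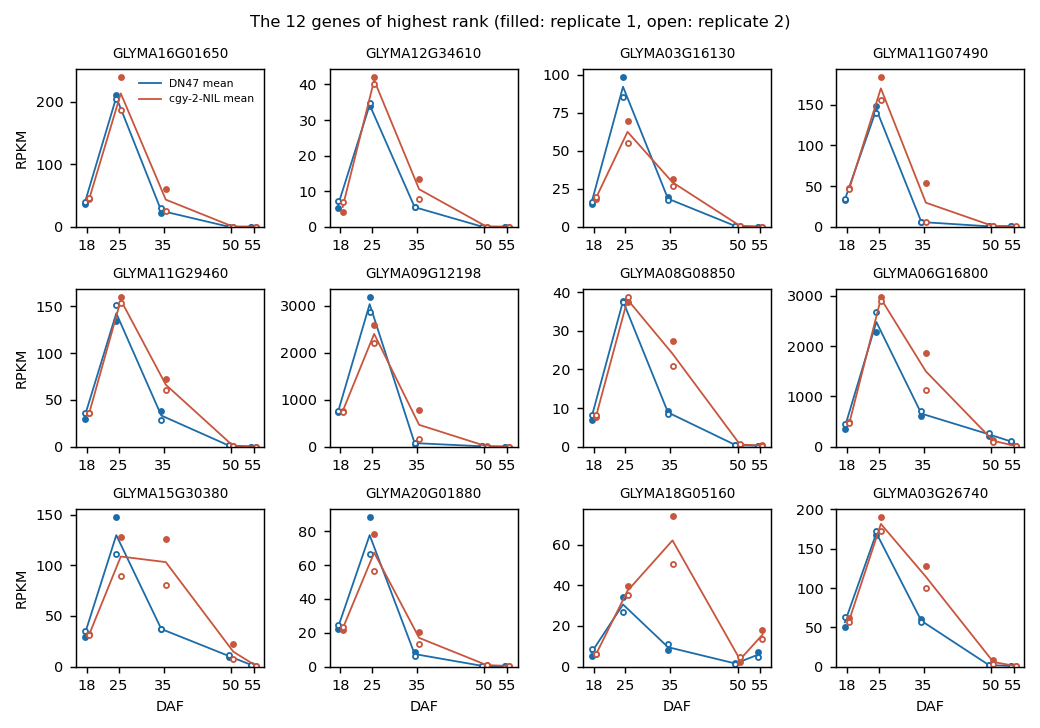
RPKM of the 12 genes of highest rank against days after flowering in DN47 (blue) and cgy-2-NIL (red), with replicate 1 filled, replicate 2 open and lines through the means. The level kept at 35 DAF was a larger part of the 25 DAF level in cgy-2-NIL than in DN47 for all 12. Low DN47 levels outside 25 DAF put these genes at the top of the ranking, which favours that order, so it is a description only. In cgy-2-NIL GLYMA18G05160 had 74.0 and 50.4 RPKM at 35 DAF against 39.6 and 35.1 RPKM at 25 DAF.

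The stage pattern was tested in the 10 cgy-2-NIL libraries, which the choice of genes did not use, with edgeR's quasi-likelihood test on the counts and Benjamini-Hochberg adjustment over the 39979 genes tested. All 150 genes passed the filter on low counts. A gene was called at an adjusted p under 0.05. From 18 to 25 DAF, 138 of the 150 genes (92.0%) rose and none fell, against 15.9% of all genes tested that rose. The other 12 all had positive fold changes. The median log2 fold change was 1.59, beside 0.23 over the eligible genes and -0.01 over all genes tested. Among the genes of highest rank, GLYMA12G34610 rose by a log2 fold change of 3.03 ± 0.29 (SE, adjusted p = 0.000168) and GLYMA16G01650 by 2.39 ± 0.30 (adjusted p = 0.000456).

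The decline by the late stages was equally general. At 25 DAF 144 genes (96.0%) were higher than at 50 DAF, against 33.8% of all genes tested. Against 55 DAF 139 (92.7%) were higher, beside 43.7% of all genes tested. The eligible genes were themselves shifted that way. Their median log2 fold changes were 0.40 against 50 DAF and 0.58 against 55 DAF, beside 0.05 and 0.31 over all genes tested. At 55 DAF 84 of the 150 genes had a cgy-2-NIL mean under 1 RPKM, and 37 had no more than 3 counts in either library, so no fold change is given for those. The corresponding numbers in DN47 were 61 and 21 genes.

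The comparison of 25 with 35 DAF came out otherwise. Only 25 genes (16.7%) were higher at 25 DAF, against 17.5% of all genes tested and 19.4% of the 5412 eligible genes, so the share was near the background. A further 12 genes (8%) were lower at 25 than at 35 DAF, against 15.5% of all genes tested, and 113 were not called. At an unadjusted p under 0.05, 36 genes were higher, but no share of all genes tested was counted at that threshold, so nothing is read from it. The median log2 fold change was 0.14 over the 150 genes and 0.00 over all genes tested. In all, 22 genes (14.7%) were higher at 25 DAF than at each of the other 4 stages, against 2.97% of all genes tested and 4.82% of the eligible genes. A further 103 genes passed against 18, 50 and 55 DAF and missed the call at 35 DAF only.

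The scale between libraries bears on that comparison. RPKM is relative to the library total, whereas the edgeR test used trimmed-mean (TMM) factors, which ran from 0.676 to 1.56 over the 10 cgy-2-NIL libraries. In cgy-2-NIL these factors gave every gene a shift of -0.59 on the log2 scale at 25 relative to 35 DAF. With library totals only, 84 genes were higher at 25 than at 35 DAF and 2 were lower, but 45.7% of all genes tested were then higher too. On that scale the median log2 fold change was 0.72 over the 150 genes and 0.58 over all genes tested, and 73 genes (48.7%) passed against all 4 stages, against 4.26% of all genes tested.

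The number of genes higher at 25 than at 35 DAF also depended on single libraries. It was 15 without either 18 DAF library, 9 and 13 without 25 DAF replicate 1 and 2, 15 and 11 without 35 DAF replicate 1 and 2, and 39 without either 50 DAF library. The shares of all genes tested that were higher moved too, from 8.92% without 35 DAF replicate 2 to 19.9% without a 50 DAF library. The count above all 4 stages was 11, 11, 7, 11, 15, 11, 34 and 34 in that order, and between 7 and 21 of these were among the 22, while the share of all genes tested ran from 1.17% to 3.597%. Thus the rise from 18 DAF and the loss by 50 DAF were general to the set, and the fall by 35 DAF was not shown for most of it.

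**Figure D3:**
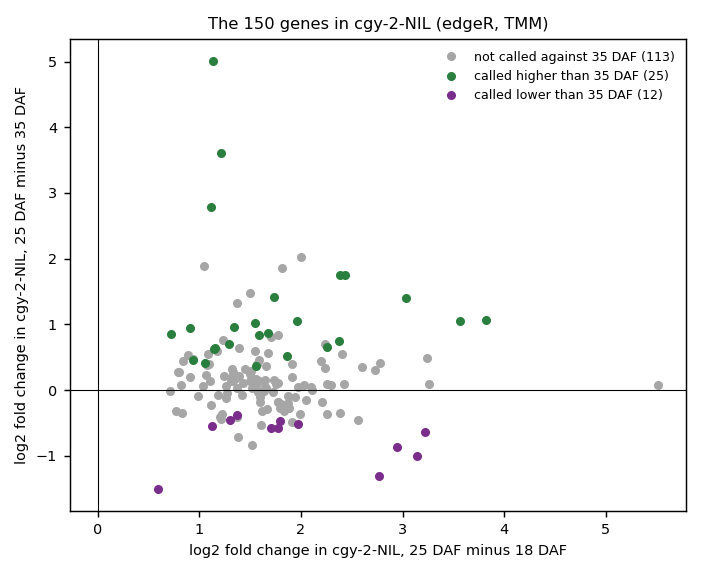
Log2 fold changes in cgy-2-NIL of the 150 genes, 25 minus 18 DAF (horizontal axis) and 25 minus 35 DAF (vertical axis), each point a gene, coloured by its call against 35 DAF at an adjusted p under 0.05. All points lie right of 0 on the horizontal axis, whereas on the vertical axis 25 are called above 0, 12 are called below 0 and 113 are not called.

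The genes that passed against all 4 stages in cgy-2-NIL covered log2 fold changes of 0.37 to 3.61 against 35 DAF. GLYMA16G01650 was higher at 25 than at 35 DAF by 1.75 ± 0.29 on the log2 scale (adjusted p = 0.00192), GLYMA12G34610 by 1.40 ± 0.27 (adjusted p = 0.0052) and GLYMA20G01880 by 1.42 ± 0.19 (adjusted p = 0.000576). Without 35 DAF replicate 2, GLYMA12G34610 had an adjusted p of 0.0559. GLYMA03G16130 and GLYMA11G29460 passed with smaller differences, 0.51 ± 0.16 (adjusted p = 0.0331) and 0.66 ± 0.21 (adjusted p = 0.0389), and both lost the call against 35 DAF without any single library of 18 or 35 DAF or without 25 DAF replicate 1, and GLYMA11G29460 also without 25 DAF replicate 2. GLYMA02G42602, a short model of 243 bp among the genes of highest level, had 1148 and 827 RPKM at 25 DAF and 362 and 364 RPKM at 35 DAF in cgy-2-NIL. It was higher at 25 DAF by 0.85 ± 0.20 (adjusted p = 0.00959) and lost the call without 35 DAF replicate 1 (adjusted p = 0.0760) or 25 DAF replicate 1 (adjusted p = 0.0811). Its call against 18 DAF was lost without 18 DAF replicate 1 (adjusted p = 0.0785), 18 DAF replicate 2 (adjusted p = 0.162) or 25 DAF replicate 1 (adjusted p = 0.187).

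Of the 12 genes lower at 25 than at 35 DAF in cgy-2-NIL, GLYMA18G05160 and GLYMA02G43670 moved most. GLYMA18G05160 had 34.5 and 26.7 RPKM at 25 DAF and 8.20 and 10.9 RPKM at 35 DAF in DN47. In cgy-2-NIL it had 39.6 and 35.1 RPKM at 25 DAF and 74.0 and 50.4 RPKM at 35 DAF, a log2 fold change of -1.31 ± 0.24 (adjusted p = 0.00347). Both cgy-2-NIL libraries lay above both DN47 libraries at 25 DAF by little, and at 35 DAF by several-fold.
GLYMA02G43670 fell in the same direction (-1.51 ± 0.32, adjusted p = 0.00666), but its DN47 libraries at 25 DAF held 31.8 and 12.6 RPKM, the widest replicate difference of the set, and the call was lost without cgy-2-NIL 25 DAF replicate 2. Of the others, GLYMA12G29090, GLYMA11G11870 and GLYMA02G13191, were also among the 4 genes lowest in cgy-2-NIL relative to DN47 at 25 DAF.

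A second departure was seen at 55 DAF, where 4 genes (2.67%) were lower at 25 DAF in cgy-2-NIL, against 35.0% of all genes tested. These 4 were picked out after their values were seen. GLYMA16G29790 had 45.5 and 45.7 RPKM at 25 DAF and 11.1 and 16.5 RPKM at 55 DAF in DN47. In cgy-2-NIL it had 37.0 and 30.9 RPKM at 25 DAF, and at 55 DAF 78.1 and 68.4 RPKM, with an intervening low of 3.64 and 8.33 RPKM at 50 DAF. The log2 fold change of 25 against 55 DAF was -2.13 ± 0.29 (adjusted p = 9.23e-05). Its 25 DAF peak was less certain. The call of 25 above 35 DAF was lost without any single library of 18, 25 or 35 DAF. That of 25 above 18 DAF was lost without either 18 DAF library or without 25 DAF replicate 1.
GLYMA13G06230 (-1.58 ± 0.18, adjusted p = 1.69e-05) and GLYMA03G31570 (-1.296 ± 0.36, adjusted p = 0.00867) had the same double-peaked course in cgy-2-NIL, with 42.6 and 38.0 RPKM and 41.6 and 34.9 RPKM at 55 DAF. The call of GLYMA03G31570 against 55 DAF was lost with library totals only (adjusted p = 0.509), without 25 DAF replicate 2 and without 55 DAF replicate 1. Its call of 25 above 18 DAF was lost without any single library of 18, 25 or 55 DAF. It was also lost with library totals only (adjusted p = 0.0591) and with the filter of at least 1 count (adjusted p = 0.0602). GLYMA04G00420 had 69.7 and 64.3 RPKM at 55 DAF in cgy-2-NIL against 32.6 and 36.3 RPKM in DN47. Its 25 DAF RPKM in cgy-2-NIL, 83.8 and 74.8, was still above that, and its call as lower (-0.78 ± 0.20, adjusted p = 0.00464) arose on the TMM scale, with a log2 fold change of 0.24 (adjusted p = 0.301) from library totals only. GLYMA17G08310, the gene with 55 DAF as its next stage in DN47, was the only one called lower at 25 than at 50 DAF.

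By mean RPKM, the highest cgy-2-NIL stage was 25 DAF for 139 genes (92.7%), against 39.5% of the 5412 eligible genes, 35 DAF for 8 and 55 DAF for 3. With RPKM rescaled by the TMM factors, 92 genes were highest at 25 DAF and 49 at 35 DAF in cgy-2-NIL. In DN47 149 of 150 stayed highest at 25 DAF, but by less. The median DN47 ranking ratio of the 150 genes was then 1.37, against 1.99 before rescaling. In that line the factors gave every gene a shift of -0.67 on the log2 scale at 25 relative to 35 DAF. In cgy-2-NIL the stage next in level was 35 DAF for 116 genes and 18 DAF for 29.

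The ranking rule was then applied to cgy-2-NIL itself. There 6100 genes reached 20 RPKM at 25 DAF, and the ratio of the first 150 ran from 19.98 down to 2.57, above the 1.72 of the DN47 list. Of the 150 DN47 genes, 144 reached 20 RPKM and 50 (33.3%) had a cgy-2-NIL ratio of at least 1.72, but only 11 were on the cgy-2-NIL list (7.33% of each list). The median cgy-2-NIL ratio of the DN47 genes was 1.57. Applied to 18 DAF, the same rule gave lists that shared 114 genes (76.0%), and the lists of 35, 50 and 55 DAF shared 69 (46.0%), 68 (45.3%) and 56 (37.3%). On the scale of the deposited RPKM, the 25 DAF lists were thus the least shared of the 5 stages. With RPKM rescaled by the TMM factors in both lines, the 25 DAF lists shared 30 genes. No rescaled count was made for the other stages, so their order on that scale is not known.
The 11 genes on both lists were GLYMA16G01650, GLYMA12G34610, GLYMA11G07490, GLYMA09G12198, GLYMA20G01880, GLYMA02G08260, GLYMA19G43400, GLYMA09G41560, GLYMA05G33630, GLYMA01G03070 and GLYMA14G03580. Of these, 9 also passed the test against all 4 stages, and GLYMA11G07490 and GLYMA09G12198 did not.

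Between the lines at 25 DAF the levels were close. The median log2 ratio of cgy-2-NIL to DN47, with 1 RPKM added to each mean, was 0.04 over the 150 genes and 0.09 over the eligible genes. Both cgy-2-NIL libraries were above both DN47 libraries for 53 genes (35.3%), against 41.6% of eligible genes, and below them for 41 (27.3%), against 20.3%. After TMM rescaling the median line ratio was -0.05, 29 genes (19.3%) were above, against 33.2%, and 48 (32%) below, against 31.3%. Since high DN47 values at 25 DAF helped to choose the genes, these shares are a description only.

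GLYMA14G03580 had the largest line ratio at 25 DAF. It held 164 and 231 RPKM in DN47 and 609 and 848 RPKM in cgy-2-NIL, a mean 3.69 times as high. At 18 DAF the order was the opposite, with 94.7 and 130 RPKM in DN47 and 64.6 and 70.6 RPKM in cgy-2-NIL. At 35 DAF DN47 had dropped to 3.56 and 4.07 RPKM, while cgy-2-NIL still held 259 and 209 RPKM, 61.3 times as much. In cgy-2-NIL its rise from 18 DAF was 3.57 ± 0.24 on the log2 scale (adjusted p = 2.19e-05) and its 25 DAF level exceeded that at 35 DAF by 1.06 ± 0.22 (adjusted p = 0.00583), with an adjusted p of 0.0595 without 25 DAF replicate 2 and of 0.0539 without 35 DAF replicate 2.
GLYMA09G41560 had 18.6 and 23.5 RPKM in DN47 and 44.3 and 56.1 RPKM in cgy-2-NIL at 25 DAF. GLYMA05G33630 had 21.8 and 23.2 RPKM against 42.5 and 37.9 RPKM, and GLYMA20G34900, a model of 207 bp, had 31.2 and 34.4 RPKM against 53.3 and 50.8 RPKM. In none of these genes did the lines overlap at 25 DAF, which their choice as the 4 highest in line ratio favours. All of them passed against each other stage in cgy-2-NIL. That choice also favours a high cgy-2-NIL level at 25 DAF, so the passes are a description of picked genes. GLYMA05G33630 and GLYMA20G34900 lost the call against 18 DAF without any single library of 18 or 25 DAF. GLYMA05G33630 also lost the call against 35 DAF without any single library of 18, 25 or 50 DAF, without 35 DAF replicate 2 and with the filter of at least 1 count (adjusted p from 0.0675 to 0.148), and GLYMA20G34900 that against 18 DAF with DESeq2 (adjusted p = 0.0791) and with library totals only (adjusted p = 0.0757).

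At the low end, GLYMA11G11870 had 32.9 and 26.6 RPKM in DN47 and 19.6 and 12.7 RPKM in cgy-2-NIL, a log2 ratio of -0.84. GLYMA02G13191 had 22.2 and 17.9 RPKM against 13.0 and 9.59 RPKM, GLYMA12G29090 had 48.0 and 46.0 RPKM against 33.1 and 27.9 RPKM, and GLYMA01G04710 had 121 and 131 RPKM against 82.9 and 84.0 RPKM. None of these overlapped between the lines, which their choice as the 4 lowest in line ratio favours. The first 3 were already near or above their own 25 DAF level at 35 DAF in cgy-2-NIL, with 19.2 and 19.7, 14.6 and 15.3, and 34.6 and 28.5 RPKM. Their log2 fold changes against 35 DAF were -0.86 ± 0.20 (adjusted p = 0.0102), -1.003 ± 0.22 (adjusted p = 0.0119) and -0.63 ± 0.13 (adjusted p = 0.00757), and none of these calls held with library totals only or without 25 DAF replicate 2. The first and second were also lost without 35 DAF replicate 2, and the last without 35 DAF replicate 1. The same 3 genes were very low at 18 DAF in both lines, between 1.32 and 4.33 RPKM.

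At 35 DAF the lines stood apart for most of the set. Both cgy-2-NIL libraries were above both DN47 libraries for 118 genes (78.7%), against 50.2% of the eligible genes. They were below them for 5, a count for which no share of the eligible genes was made. The median log2 ratio was 0.56, beside 0.20 over the eligible genes. After TMM rescaling it was 0.39 beside 0.04, with 100 genes (66.7%) above, against 39.3%. Since low DN47 values at 35 DAF helped to choose the genes, these line ratios are a description of the set only. At 18 DAF the median ratio was -0.03, at 50 DAF 0.15 and at 55 DAF -0.17. At 55 DAF both cgy-2-NIL libraries were below both DN47 libraries for 82 genes (54.7%), against 52.2% of the eligible genes, and after TMM rescaling for 73 (48.7%), against 43.5%, so the shares were near the background. The share of the 18 cupin genes was also lower there, at 1.77% and 1.38% against 9.002% and 8.04% in DN47, and whether both follow the same source was not tested.

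**Figure D4:**
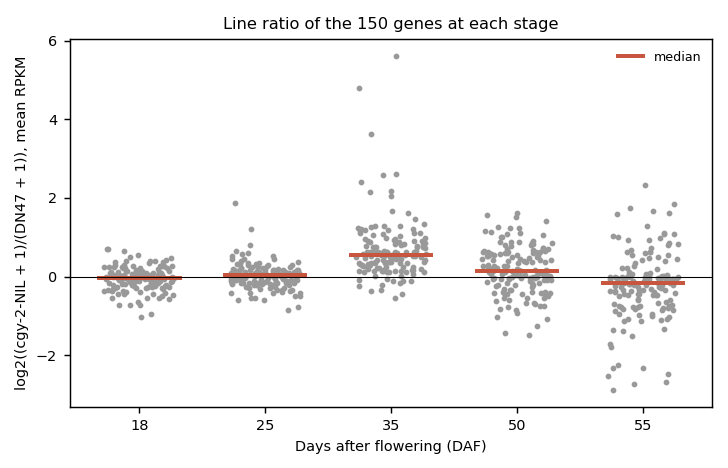
Log2 ratio of cgy-2-NIL to DN47 mean RPKM, with 1 RPKM added to each, for each of the 150 genes (points) at each stage, with the median (bar). The medians are -0.03, 0.04, 0.56, 0.15 and -0.17 from 18 to 55 DAF, and the points at 35 DAF extend furthest upward.

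In all, 9 genes had a DN47 mean at 35 DAF under 10% of that at 25 DAF. The cgy-2-NIL libraries at 35 DAF differed by more than 2-fold in 6 of them. The 9 genes were grouped after their values were seen. Their median level at 35 DAF was 1.92% and 2.06% of the 25 DAF mean in the DN47 libraries, 30.4% in cgy-2-NIL replicate 1 and 3.35% in replicate 2. Replicate 1 was above replicate 2 in all 9 genes, and by more than 2-fold in 6. Both cgy-2-NIL libraries were above both DN47 libraries in 7 of the 9, against 50.2% of the eligible genes. As low DN47 values grouped these genes, that count is a description only.
GLYMA13G27050 had 293 and 343 RPKM at 25 DAF and 0.481 and 0.261 RPKM at 35 DAF in DN47. In cgy-2-NIL it had 381 and 339 RPKM at 25 DAF, and at 35 DAF 68.2 RPKM in replicate 1 against 6.12 RPKM in replicate 2. GLYMA11G07490 had 5.91 and 5.71 RPKM at 35 DAF in DN47, and 53.5 against 5.71 RPKM in cgy-2-NIL. GLYMA04G14830 had 487 and 636 RPKM at 25 DAF in DN47 and 818 and 853 RPKM in cgy-2-NIL, and at 35 DAF 0.717 and 0.386 RPKM in DN47 against 31.9 and 4.65 RPKM in cgy-2-NIL. For GLYMA11G07490 and GLYMA18G06210 the second cgy-2-NIL library was at or below the DN47 libraries at 35 DAF, and the first was above them.

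Over the whole set, replicate 1 exceeded replicate 2 at 35 DAF in cgy-2-NIL for 135 genes (90.0%), but so it did for 89.7% of the eligible genes. A difference above 2-fold was found for 13 genes (8.67%), against 3.07% of the eligible genes. The cupin share was lower in the same library (14.9% against 21.5%), and its part in these differences was not tested. Without that library the 35 DAF group is a single sample, assumed to vary like the other groups, and as the 9 genes were grouped after its values were seen, no call is drawn from that fit. The log2 fold change of GLYMA11G07490 went from 2.03 ± 0.71 (adjusted p = 0.0584) to 4.21, and that of GLYMA13G27050 from 2.79 ± 0.86 (adjusted p = 0.0442) to 5.19. The call of GLYMA13G27050 was lost without any single library of another stage. GLYMA09G12198 was not called (adjusted p = 0.151 with the library kept).

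**Figure D5:**
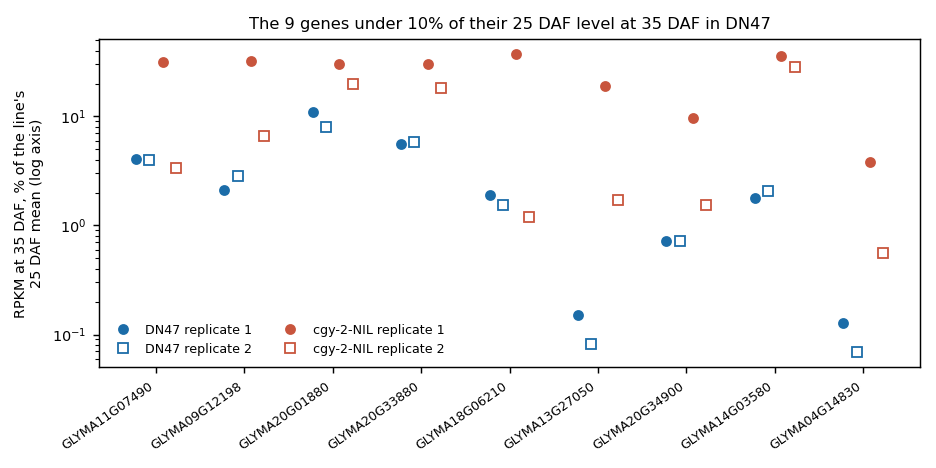
RPKM at 35 DAF as a percentage of the line's own 25 DAF mean (log axis) for the 9 genes under 10% in DN47, in each of the 4 libraries at that stage. Replicate 1 of cgy-2-NIL (filled red) lies between 3.81% and 37.2%, above replicate 2 (open red) in all 9 genes.

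The 2 DN47 libraries at 25 DAF were within 1.2-fold of each other for 132 of the 150 genes and differed by more than 1.5-fold for 3. These libraries helped to choose the genes, and the same counts were not made over the eligible genes. After GLYMA02G43670, the widest differences were in GLYMA03G26437 (52.2 and 88.0 RPKM), GLYMA03G07940 (17.7 and 27.7 RPKM), GLYMA14G03580 and GLYMA02G17330 (19.4 and 27.1 RPKM). GLYMA03G26437 had the steepest rise of the set in cgy-2-NIL, from 2.92 and 2.21 RPKM at 18 DAF to 120 and 94.6 RPKM at 25 DAF, a log2 fold change of 5.52 ± 0.38 (adjusted p = 2.6e-05). Its levels at 35 DAF, 71.8 and 63.3 RPKM, did not differ on the TMM scale (0.08 ± 0.29, adjusted p = 0.858).

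The study names 1 of the 150 genes, GLYMA17G00950, which it lists as a transcription factor of the NF-YB (HAP3) family. NF-YB proteins are subunits of the CCAAT-binding nuclear factor Y, and plant members of the LEC1 type are regulators of embryo and seed maturation. GLYMA17G00950 had 107 and 117 RPKM at 18 DAF, 192 and 222 RPKM at 25 DAF and 102 and 110 RPKM at 35 DAF in DN47. In cgy-2-NIL it had 106 and 108, then 172 and 187, then 81.7 and 81.8 RPKM. The 25 DAF libraries of cgy-2-NIL lay below those of DN47, and the course was the same. Its rise from 18 DAF in cgy-2-NIL was 0.89 ± 0.25 on the log2 scale (adjusted p = 0.024), and its difference from 35 DAF did not pass (0.54 ± 0.25, adjusted p = 0.122). The rise was not called without either 18 DAF library or without either 25 DAF library. At 55 DAF its RPKM was 3.67 and 4.85 in DN47 and 0.877 and 0.343 in cgy-2-NIL. The remaining 149 identifiers carry no gene name in the sources used here and are given by identifier only.

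The identifiers spread over all 20 chromosomes. Chromosome 3 held 12 genes (8%, against 4.67% of the eligible genes) and chromosome 16 held 10 (6.67%, against 3.10%), while chromosome 8 held 5 (3.33%, against 7.67%). Chromosome 20, which carries the introgressed segment in cgy-2-NIL, held 6 genes (4%, against 4.49%). Identifiers are numbered along the chromosome, and 19 genes fell into 9 runs with steps of at most 200 in the number, 8 runs of 2 genes and 1 of 3. The run of 3, GLYMA16G28030, GLYMA16G28070 and GLYMA16G28150, had DN47 means at 25 DAF of 61.3, 31.6 and 65.8 RPKM and fell to 25.9, 11.99 and 25.2 RPKM at 35 DAF. In cgy-2-NIL the same genes had 47.7, 28.6 and 70.6 RPKM at 25 DAF and 29.3, 15.6 and 43.8 RPKM at 35 DAF. In the pair GLYMA11G11870 and GLYMA11G11900, the 25 DAF means of both genes in cgy-2-NIL lay below those of DN47, with 16.2 against 29.8 and 47.3 against 66.6 RPKM. Neighbouring genes may be near-identical copies that share reads, so the values within a run are less certain. The median gene length was 1345 bp, beside 1495 bp over the eligible genes.

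The last of the 150 ranks lay in a flat part of the ranking. The genes just inside were GLYMA01G05150 and GLYMA04G14830, both with a ratio of 1.72. The genes just outside were GLYMA14G35340, with 1.72, and GLYMA14G20380, with 1.71. GLYMA04G14830, at the edge by this ratio, was nevertheless almost absent at 35 DAF in DN47, because its 18 DAF libraries held 282 and 368 RPKM.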

How the data were processed

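RNA was sequenced from 20 whole-seed libraries (2 lines, 5 stages, 2 biological replicates each), which the labels give as separate samples. The authors deposited raw counts per gene, made with HTSeq against an Ensembl Plants release, and RPKM values, both used here. Neither aligner nor strandedness is given in the sources used here. RPKM equalled count over gene length and library total, with no scaling between libraries.

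The rule was applied to the RPKM values. Counts of the 10 cgy-2-NIL libraries were tested with edgeR 4.0.16 (R 4.3.3; filterByExpr, TMM, robust quasi-likelihood fit, 5 residual degrees of freedom, adjusted p under 0.05). The fit was tested on simulated data with genes raised at 25 DAF. Of 100 genes raised 2-fold, 54 were called above each other stage, and of 100 raised 4-fold, 100 were. A 2-fold peak can thus miss the call. DESeq2 1.42.0, limma 3.58.1 and other scalings and filters were alternatives. The DESeq version of the authors was not run.

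The genes and lists were chosen with earlier results of these data known. Genes named in the text are the 12 of highest rank, the 8 of highest level, the 4 lowest and 4 highest in line ratio at 25 DAF, the 5 with the widest DN47 replicate differences, those the study names, and 2 on each side of the last rank; others are marked. Keyword groups by gene function could not be formed, as 0 of the 150 identifiers matched the 59048 genes of the reference table, so no names or sequences are printed.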

Additional observations from a re-analysis of the deposited data

Results flagged for a closer look

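In 7 cases both cgy-2-NIL libraries at 25 DAF lay below both libraries of another stage while both DN47 libraries lay above theirs. The order of the DN47 means is fixed by the choice of genes, and the difference between the lines was not tested. How many of the eligible genes meet the same conditions was not counted, so whether 7 is many or few is not known. Against 35 DAF these were GLYMA18G05160, with a log2 difference in cgy-2-NIL of -0.72 (1 RPKM added), GLYMA02G43670 (-0.84), GLYMA13G07610 (-0.25) and GLYMA02G13191 (-0.38). Against 55 DAF they were GLYMA16G29790 (-1.09), GLYMA13G06230 (-0.55) and GLYMA03G31570 (-0.27). After rescaling by TMM factors 5 of the 7 remained, without GLYMA02G43670 and GLYMA13G07610. For GLYMA02G43670 the DN47 libraries of 25 and 35 DAF then overlapped, while both cgy-2-NIL libraries at 25 DAF stayed below those at 35 DAF.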

How the results depend on the processing

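The count of genes higher at 25 than at 35 DAF in cgy-2-NIL was 25 and ranged from 9 to 39 with 1 library left out. It was 38 with limma-voom, 84 with library totals only (chosen after seeing the data) and 11 with a log2 fold change above 1. The count above all 4 stages was 22, ranged from 7 to 34 with 1 library left out, and was 73 with library totals only and 9 with a log2 fold change above 1. The log2 fold change of GLYMA04G00420 between 25 and 55 DAF turned from -0.78 to 0.24 with library totals only. With at least 10 counts in every library, 89 of the 150 genes were tested, and 86, 86 and 79 were higher at 25 DAF than at 18, 50 and 55 DAF. Replicate numbers did not pair the libraries (correlations of -0.03 to 0.08 between stages), and the replicate block gave 28 and 23 genes. Of the 150 genes, 66 were kept with TMM-rescaled RPKM, 95 with a minimum of 40 RPKM and 127 to 150 with 1 DN47 library left out. With the highest cgy-2-NIL mean at 25 DAF there were 92 after rescaling. The median line ratio at 25 DAF was 0.037 on the log2 scale, -0.046 after rescaling, and from -0.0342 to 0.077 with 1 library left out. Apart from the effect of fewer genes tested, the cause of these shifts was not tested. With 1 library left out, its lone partner is assumed to vary like the other groups.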

Other observations

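Among the 3100 gene models outside the annotation, which the choice of genes left out, 25 reached 20 RPKM at 25 DAF in DN47 and 4 would have ranked among the 150. Novel01176, of 354 bp, had 30.2 and 27.2 RPKM at 25 DAF in DN47 and 32.1 and 19.7 RPKM in cgy-2-NIL, with at most 7.74 RPKM at any other stage and a ratio of 4.93. The others were Novel01881 (ratio 2.33), Novel01794 (2.22) and Novel00766 (2.04).

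The 150 genes that the rule took from cgy-2-NIL had other levels in DN47. There, 83 of them were under 20 RPKM at 25 DAF. For 145 both cgy-2-NIL libraries lay above both DN47 libraries at that stage, against 41.6% of the 5412 genes eligible in DN47. Their median line ratio at 25 DAF was 2.45-fold. The list was chosen on high cgy-2-NIL values at 25 DAF, which favours that count and that ratio, so both are a description only.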
